A study of Mus musculus with 12 samples.

Results

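Dichloroacetate (DCA) was added to expanding mouse CD8+ T cells in 2 experiments, and the measurement described here is the DCA effect in experiment 2 minus the DCA effect in experiment 1 for each gene. All 12 RNA sequencing libraries of the series entered it, 6 from each experiment, because each of the 6 mice gave 1 untreated and 1 DCA-expanded culture. It was tested as the interaction of treatment and experiment in 1 edgeR fit to the 4 groups of 3 libraries, with no term for the mouse. For every mouse the untreated log2 level was also subtracted from the DCA level, to show the 3 changes of each experiment. Bulk libraries cannot tell fewer cells of a type from less RNA per cell, and that holds for every level below.

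Splenocytes from mice with a transgenic T cell receptor saw their cognate peptide for 24 hours, were expanded for 6 more days with or without 5 mM DCA, and were sorted for CD8 on day 7. The strain and genotype labels of experiment 1 are OT-1 and C57BL/6-Tg(TcraTcrb)1100Mjb/J, for which the peptide was SIINFEKL at 250 nM. Those of experiment 2 are Pmel-1 and, on the background B6.Cg-Thy1a/Cy, the transgene Tg(TcraTcrb)8Rest/J, for which it was gp100 at 1 uM. In both experiments, control and DCA cells alike carried the transgenic receptor and grew in medium with IL-2. The sources used here do not give the age of the mice.

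The labels of experiment 1 go against each other: its sample titles say Pmel-1 while its strain and genotype entries say OT-1. The pmel-1 receptor uses Trbv14 for its beta chain, and this segment had 0 counts in all 6 libraries of experiment 1 against 1966 to 2876 CPM (counts scaled to a common library total, here the sum of all counts) in experiment 2. Trbv12-1, from the segment family of the OT-1 receptor, ran from 169 to 214 CPM in experiment 1 and from 0.0688 to 0.550 in experiment 2. The strain entries were therefore used, and mice are named by experiment and number. The labels also speak of 2 technical batches, and strain and batch coincide with the experiment. Receptor, peptide, batch and experiment cannot be told apart in anything that follows.

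DCA inhibits the pyruvate dehydrogenase kinases, which phosphorylate and switch off the enzyme complex that turns pyruvate into acetyl-CoA in mitochondria. Activated T cells otherwise send much of their pyruvate to lactate, under control of factors such as MYC, and an interaction asks whether 2 settings answer the same drug to the same degree. A positive value means that DCA raised a gene more, or lowered it less, in experiment 2 than in experiment 1.

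Library totals were 28039699 to 41051066 counts. Genes with at least 1 count numbered 18382 to 19551 per library in experiment 1 and 23635 to 26571 in experiment 2. Cd8a, a chain of the CD8 co-receptor, was at 274 to 379 CPM of all counts in experiment 1 and 561 to 738 in experiment 2, and Cd4 was at most at 0.638. No 2 replicates matched within sampling noise. The 23 searched markers of myeloid and dendritic cells summed to 138 to 237 CPM (scaled by TMM factors) in untreated and 246 to 327 in DCA libraries of experiment 1, and to 217 to 315 and 306 to 348 in experiment 2. Most of that was H2-Ab1, while 17 of the 23 stayed under 1 CPM in every library, with C1qa and S100a9 at 0. Sums of 12 B cell markers, mostly Ighm, ran from 297 to 448 and 403 to 479, then 358 to 454 and 423 to 506, in the same order. For 7 markers of CD4 and regulatory T cells, mostly Il2ra, they ran from 344 to 405 and 433 to 617, then 766 to 802 and 931 to 995. For 12 markers of NK and innate lymphoid cells, mostly Tcrg-C1, they ran from 527 to 881 and 399 to 826, then 430 to 528 and 529 to 598. The markers Ms4a1, Lyz2, Csf1r, Ncr1 and Foxp3, picked from those near 0, were at most at 0.382 CPM in any library. Others were higher. Cd79b was at 15.0 to 22.2 CPM untreated and 29.1 to 41.9 with DCA in experiment 1, and Cd68 reached 29.9. Of these markers, 4 B cell, 7 myeloid, 6 CD4 and 7 NK genes were tested. Within experiment 1, 2 B cell, 2 myeloid and 3 CD4 markers were called higher with DCA (5.67% of all genes tested). There, 1 NK marker was lower (11% of all genes). Within experiment 2, 1 myeloid and 1 CD4 marker were called higher (2.37%), and 2 NK markers lower (2.2%). Fitted by itself, experiment 1 had 1 B cell, 1 myeloid and 1 CD4 marker higher and 1 NK marker lower. Experiment 2 fitted by itself had 2 B cell, 2 myeloid, 2 CD4 and 1 NK marker higher and 2 NK markers lower. No marker was called in the difference described next.

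DCA effects differed between the experiments for 52 of 15688 genes tested (percent called 0.331; edgeR quasi-likelihood test, Benjamini-Hochberg adjusted p under 0.05). The difference was above 0 for 44 of them (0.28%) and below 0 for 8 (0.051%). At an unadjusted p under 0.05 there were 2226 genes, 1485 higher and 741 lower. In the same fit, DCA changed 2622 genes within experiment 1 (16.7%; 889 or 5.67% higher, 1733 or 11% lower) and 717 within experiment 2 (4.57%; 372 or 2.37% higher, 345 or 2.2% lower). These counts share 1 estimate of the spread over all 12 libraries, and their order turned when each experiment was fitted by itself: 1251 genes were then called in experiment 1 (557 higher, 694 lower) and 1564 in experiment 2 (896 higher, 668 lower). Counts within an experiment below are from the joint fit unless said otherwise. Over 8393 genes with a mean of at least 5 CPM in both experiments, 68.2% had DCA effects of the same sign, with a Pearson r across genes of 0.557 and a Spearman rho of 0.477. Genes are not independent replicates, and the 2 sets of effects share no library. Of the 411 genes called in both experiments, 404 moved the same way and 7 opposite ways. They were 15.7% of the genes called in experiment 1 and 57.3% of those called in experiment 2.

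Most of the 52 genes, 38 of them, had DCA effects of opposite sign in the 2 experiments. By the calls within each experiment, 27 were lower with DCA in experiment 1 only, 9 were higher in experiment 2 only and 6 were higher in experiment 1 only. A further 7 were called in both with opposite signs, 2 were called higher in both with the larger effect in experiment 2, and 1 was lower in experiment 2 only. Of the 7, both calls were kept with a term for each mouse in 3 (Lta, Cd44 and Aen). With each experiment fitted by itself, 23 of the 52 were called lower and 9 higher in experiment 1, and 4 lower and 21 higher in experiment 2. Of the 44 with a positive difference, 34 had an effect below 0 in experiment 1 and above 0 in experiment 2. The median effect of these 44 was -0.52 (log2) in experiment 1 and 0.26 in experiment 2. Per-mouse changes of the 2 experiments did not overlap for any of the 52 genes, against 19.5% of all genes tested, but that test used the same values.

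**Figure D1:**
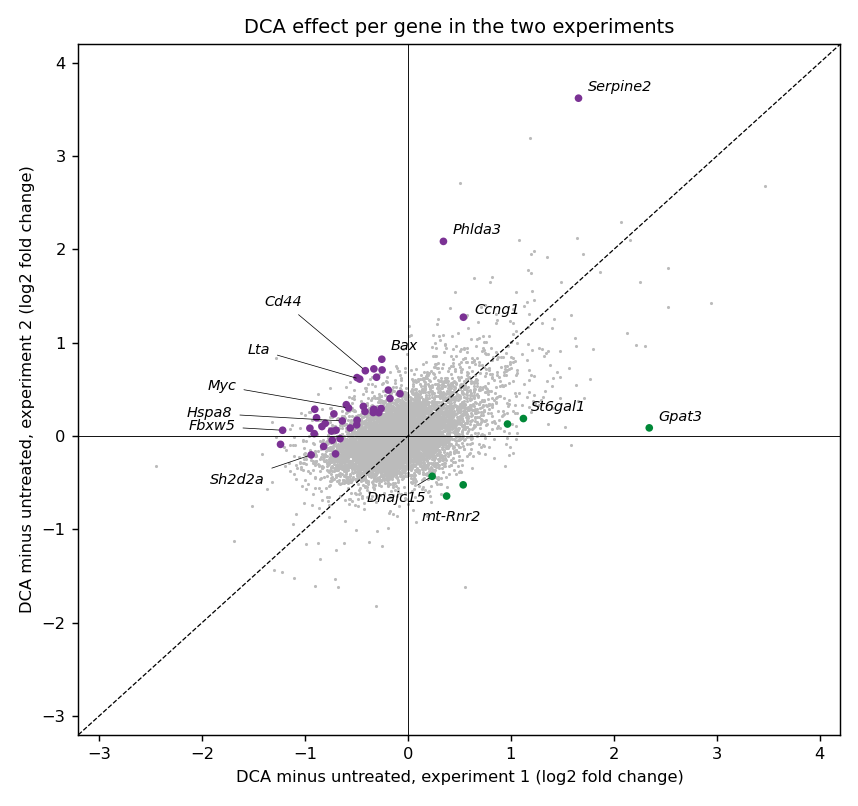
DCA effect (log2 fold change, DCA against untreated) of each gene in experiment 1 on the x axis and experiment 2 on the y axis, for genes at 5 CPM or more in both experiments (grey). Coloured points are the 48 called genes at that level (purple: difference above 0, green: below 0), the dashed line marks equal effects, and most purple points lie left of 0 and at or above 0 on the y axis.

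The calls rest on few libraries. Each of the 52 differences kept its sign when any 1 library was left out, yet the number of called genes then ran from 1 to 217. Leaving out any 1 library of experiment 2 left 1 to 7 genes. Without the untreated library of mouse 1 or 2 of experiment 1 there were 18 or 11 genes. Without that of mouse 3 there were 217, and without the DCA library of mouse 2 of experiment 1 there were 143. These fits remade the gene set and the TMM factors. An alternative chosen after seeing the data kept both as for all 12 libraries. Leaving out 1 library of experiment 2 then left 4 to 27 genes. Lta was the 1 gene called in all 12 of the fits with both remade. It was followed by Bax in 9, Cd44 in 8 and Myc, Ccng1 and Gpat3 in 7 each. With both kept, Lta, Bax, Cd44 and Snhg15 were called in all 12 fits, and Myc, Ccng1 and Hspa8 in 11 each. With a term for each mouse (the mouse term below), 24 genes were called, 18 of them among the 52. With the same pairing fitted as limma on the per-mouse changes, 0 genes were called (1749 at an unadjusted p under 0.05). Below, adjusted p-values are those of the edgeR test over all genes. The p with a mouse term in that test follows where the term ends the call. List medians with 1 library left out are from fits with gene set and factors remade, unless said otherwise. There the median difference of all genes tested was -0.0716 to -0.0450 without 1 library of experiment 2, against 0.0378 with all 12.

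**Figure D2:**
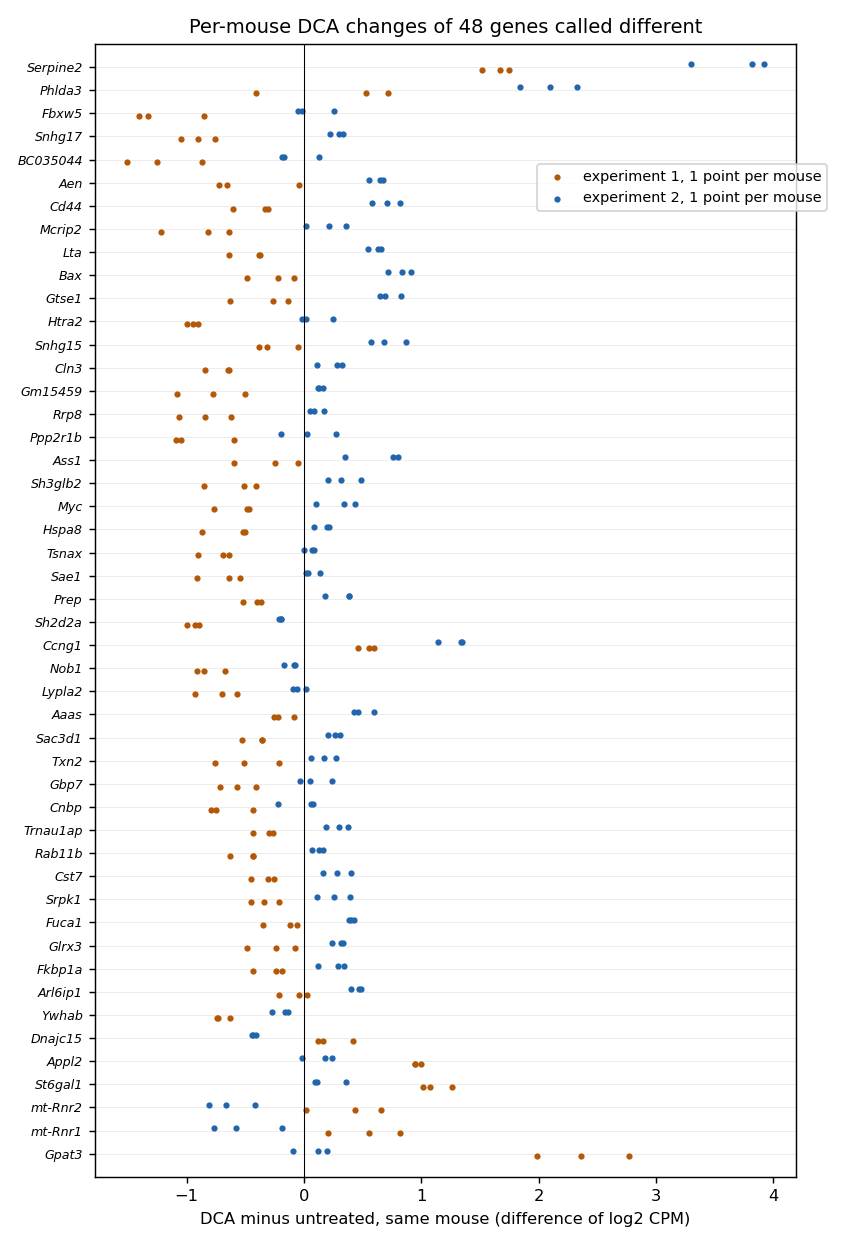
Difference of log2 CPM between the DCA and untreated libraries of the same mouse (x axis) for the 48 of 52 called genes at 5 CPM or more in both experiments (y axis, ordered by the fitted difference), with 3 mice of experiment 1 in brown and 3 of experiment 2 in blue. In every row the brown and blue points are apart.

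Among secreted and surface proteins of T cells, Lta was the gene called in every leave-one-out fit, with factors remade or kept. It encodes lymphotoxin alpha, a cytokine of the TNF superfamily that signals in lymphoid tissue. In experiment 1 it was at 87.9, 88.8 and 97.3 CPM (scaled by TMM factors, as all CPM values from here on) in the untreated libraries of mice 1 to 3 and at 67.7, 68.1 and 62.3 with DCA. In experiment 2 it was at 146, 152 and 136 untreated and at 230.4, 221 and 211 with DCA. DCA libraries were thus the lower ones in experiment 1 and the higher ones in experiment 2, with no overlap in either. The log2 effects were -0.47 ± 0.08 (SE) and 0.61 ± 0.08, and they differed by 1.08 ± 0.11 (adjusted p = 0.00119, n = 3 mice per experiment, edgeR).

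Cd44, the hyaluronan receptor that marks activated and memory T cells, also fell in experiment 1 and rose in experiment 2. It was at 64.5, 69.2 and 70.1 CPM untreated and 51.02, 45.4 and 56.7 with DCA in experiment 1, and at 39.9, 35.1 and 40.8 untreated and 59.6, 61.9 and 66.6 with DCA in experiment 2. The untreated libraries of experiment 1 were above those of experiment 2, while in DCA libraries the order was turned. The difference of effects was 1.11 ± 0.15 (adjusted p = 0.0107).

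Sh2d2a encodes an adaptor that binds the kinase Lck downstream of the T cell receptor. It fell with DCA in experiment 1, from 230.4, 260.3 and 241 to 115, 139.5 and 126 CPM, by 0.94 on the log2 scale. In experiment 2 it went from 275, 283 and 289 to 241, 247 and 249, an effect of -0.20 that did not pass the test (adjusted p = 0.152). All 6 mice thus moved downwards, and the difference of 0.74 ± 0.11 was one of size (adjusted p = 0.0119). Cst7, which encodes the cathepsin inhibitor cystatin F, was called lower in experiment 1 only, with a difference of 0.61 (adjusted p = 0.0478, 0.0637 with a mouse term).

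Lta and Sh2d2a were the exceptions in their lists. Of 34 tested genes of effector and cytotoxic function, Lta was the 1 called in the difference. Of the 34, 13 were above 0, with a median of -0.21, against 53.7% and 0.0378 over all genes tested. The median was -0.475 without the DCA library of mouse 1 of experiment 2. It was -0.133 and -0.119 without the DCA library of mouse 2 or the untreated one of mouse 1 of experiment 1. With the gene set and TMM factors kept, it ran from -0.388 to -0.123 with 1 library left out. Gzma, a granzyme, fell in both experiments, from a mean of 8739 to 4676 CPM in experiment 1 and from 1473 to 485 in experiment 2, and its difference of -0.70 did not pass (adjusted p = 0.0748, edgeR), but did with DESeq2 (0.00132), at 5 CPM (0.0264) and with no filter (3.87e-09). Gzmb, granzyme B, had effects of -0.14 and -0.11, neither called, and a difference of 0.03. Fasl, the death ligand, fell by 0.57 and by 0.73, with a difference of -0.15 ± 0.11 (adjusted p = 0.595). Of 29 genes of the T cell receptor complex and its signalling, Sh2d2a was the 1 called, 8 were above 0 and the median was -0.12 (-0.257 to -0.0841 with 1 library left out). Cd8a had an effect of -0.02 in experiment 1, fell by 0.35 in experiment 2 and had a difference of -0.33 that did not pass (adjusted p = 0.221).

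Among 17 cytokine genes tested, Lta was the 1 called and 11 were above 0, with a median of 0.21 (0.0494 to 0.295 with 1 library left out). Osm, oncostatin M, came next with a difference of 0.78 (adjusted p = 0.0883) from means of 11.97 and 10.4 CPM in experiment 1 and 56.2 and 83.7 in experiment 2.

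Targets of the tumour suppressor p53 had 5 calls in the edgeR fit, the most of the lists; the MYC and ribosome list had as many with DESeq2, 9 each, and more with no filter, 12 against 8. The p53 protein is a transcription factor stabilised by DNA damage and other stress, and its targets halt the cell cycle or start apoptosis. Of 31 tested targets, the 5 called in the difference were all higher (Bax, Ccng1, Gtse1, Phlda3 and Aen), where 0.28% of all genes were. That share takes in many low genes: the median log2 CPM was 3.04 over all genes tested and 6.43 over all genes called in the difference. Within experiment 2, 16 of the 31 rose with DCA and 0 fell, and within experiment 1, 9 rose and 2 fell. With each experiment fitted by itself, 21 rose and 1 fell in experiment 2, and 8 of 30 rose and 0 fell in experiment 1. The median difference of the 31 was 0.32, with 21 above 0. It was 0.170 and 0.214 without the DCA library of mouse 1 or 3 of experiment 2. Without the untreated library of mouse 2 or 3 of that experiment, it was 0.169 and 0.167. With 1 library left out it was at most 0.372. With the gene set and TMM factors kept, it ran from 0.239 to 0.370.

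Bax encodes the BCL2 family protein that opens the outer mitochondrial membrane in apoptosis. It was at 276, 299.9 and 272 CPM untreated and 198, 257 and 256 with DCA in experiment 1, an effect of -0.25 that did not pass (adjusted p = 0.0787). In experiment 2 it rose from 108, 114.5 and 117 to 204, 188 and 208, by 0.82 on the log2 scale. Untreated levels in experiment 2 were the lowest of the 4 groups and no group overlapped them. The effects differed by 1.08 ± 0.13 (adjusted p = 0.00792).

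Ccng1 encodes cyclin G1, a p53 target that works in feedback on p53. It rose in both experiments, from 158, 169 and 174 to 239, 233 and 255 CPM in experiment 1 and from 136, 131 and 154 to 344, 335 and 339 in experiment 2. The log2 effects were 0.54 ± 0.07 and 1.27 ± 0.07 (difference 0.73 ± 0.10, adjusted p = 0.0107). Here the experiments shared the direction and DCA libraries of experiment 2 were above those of experiment 1 without overlap.

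Phlda3 encodes a p53-induced protein that keeps the kinase AKT from the membrane. It was at 8.78, 7.87 and 8.44 CPM untreated and 6.61, 11.4 and 13.9 with DCA in experiment 1, where mouse 1 went down and mice 2 and 3 went up. The gene rose in experiment 2 from 14.7, 13.7 and 17.2 to 63.1, 68.8 and 61.9. The difference was 1.74 ± 0.28 (adjusted p = 0.0176).

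Gtse1, a protein of the G2 and S phases that binds p53, was at 30.6, 27.7 and 30.4 CPM untreated and 19.8, 23.1 and 27.6 with DCA in experiment 1 (effect -0.33, adjusted p = 0.0626). In experiment 2 it rose from 66.8, 76.1 and 72.0 to 119, 123 and 113, and the difference was 1.05 ± 0.16 (adjusted p = 0.0146). Aen, a nuclease induced by p53 in apoptosis, fell in experiment 1 by 0.49 and rose in experiment 2 by 0.63. Its levels were 36.2, 33.8 and 24.4 CPM untreated and 22.9, 20.4 and 23.7 with DCA in experiment 1, then 36.1, 39.0 and 32.7 untreated and 56.7, 57.5 and 52.3 with DCA in experiment 2. The untreated libraries of the experiments overlapped and the DCA libraries did not (difference 1.12 ± 0.19, adjusted p = 0.0256, 0.0637 with a mouse term).

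Among the other p53 targets, Cdkn1a, Zmat3 and Mdm2 rose in both experiments with no difference that passed. Not every target rose: of the 31 tested, 21 had an effect above 0 in experiment 1 and 26 in experiment 2. Cdkn1a, the cell cycle inhibitor p21, rose from a mean of 192 to 323 CPM in experiment 1 and from 285 to 528 in experiment 2, with effects of 0.75 and 0.89 and a difference of 0.14 ± 0.15 (adjusted p = 0.741). Zmat3, an RNA-binding p53 target, had effects of 1.64 and 2.12 and a difference of 0.48 ± 0.28. Mdm2, the ligase that degrades p53, had effects of 0.47 and 0.85 and a difference of 0.39 ± 0.18 (adjusted p = 0.347). Fuca1, a lysosomal fucosidase that lay outside the list, was called with a difference of 0.58 (adjusted p = 0.0358, 0.0969 with a mouse term). Of 16 tested BCL2 family genes, Bax was the 1 called, 6 were above 0 and the median was -0.15 (-0.348 to -0.0375 with 1 library left out).

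**Figure D3:**
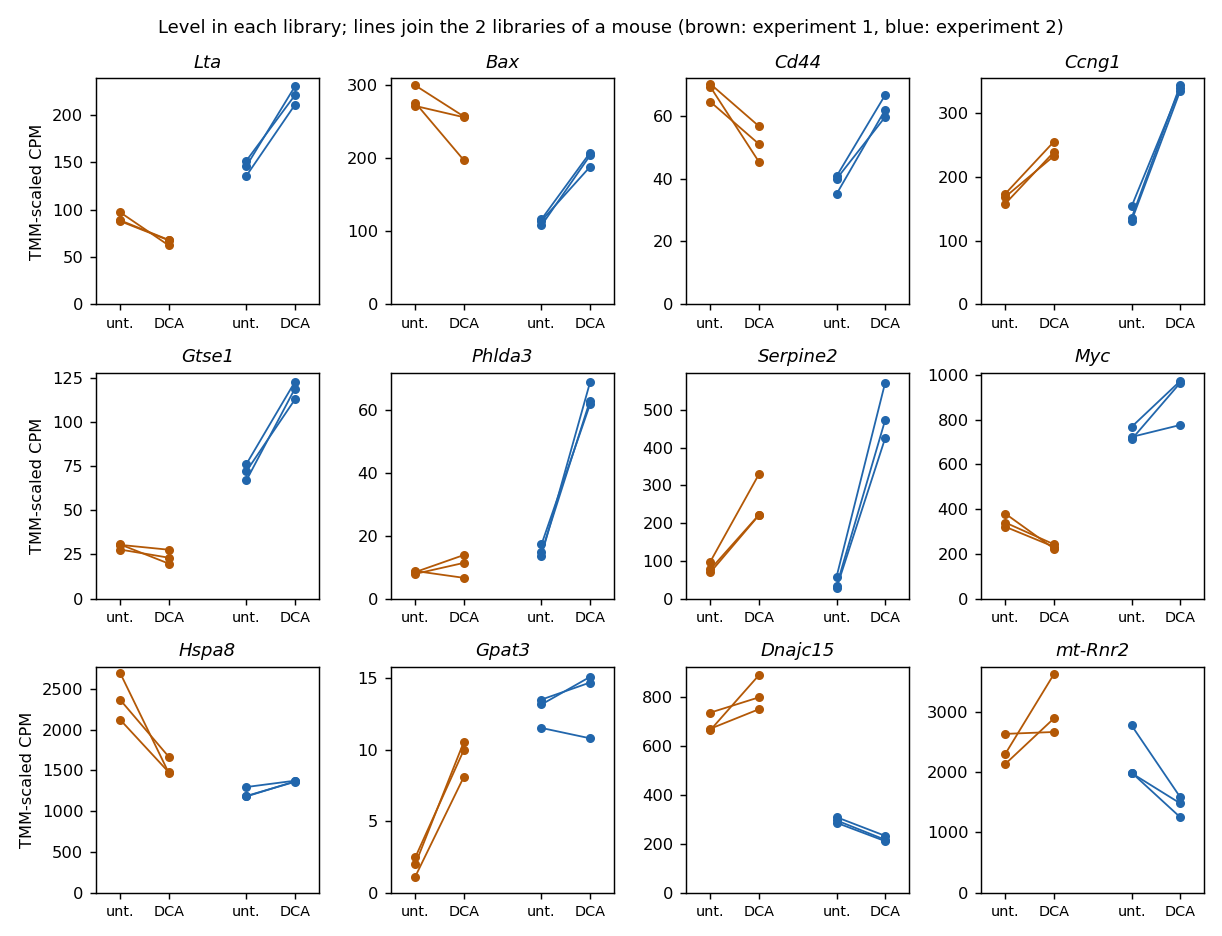
TMM-scaled CPM (y axis, from 0) of 12 called genes in each library, untreated (unt.) and DCA, with lines joining the libraries of 1 mouse (brown: experiment 1, blue: experiment 2). Lta, Cd44, Gtse1 and Bax point down in brown and up in blue, Ccng1 and Serpine2 point up in both, and Gpat3 rises in brown while its blue lines stay between 10.8 and 15.1 CPM.

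Promoters of the p53 targets called in the difference were read after the calls were known, and the 4 with a match are printed. The windows are from RefSeq on GRCm38.p6, while the counts were made on GRCm39, and each spans 250 bases before to 50 after a gene's start. A p53 half-site was searched on both strands, and the match is in capitals. Bax, chr7:45466849-45467148, minus strand; Ccng1, chr11:40755237-40755536, minus strand; Aen, chr7:78895677-78895976, plus strand; Gtse1, chr15:85859696-85859995, plus strand.
Bax: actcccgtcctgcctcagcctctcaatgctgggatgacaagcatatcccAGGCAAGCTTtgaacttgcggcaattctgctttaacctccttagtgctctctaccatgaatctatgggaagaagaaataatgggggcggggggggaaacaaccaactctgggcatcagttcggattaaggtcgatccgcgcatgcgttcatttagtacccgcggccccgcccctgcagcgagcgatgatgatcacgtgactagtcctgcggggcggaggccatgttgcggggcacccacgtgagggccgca
Ccng1: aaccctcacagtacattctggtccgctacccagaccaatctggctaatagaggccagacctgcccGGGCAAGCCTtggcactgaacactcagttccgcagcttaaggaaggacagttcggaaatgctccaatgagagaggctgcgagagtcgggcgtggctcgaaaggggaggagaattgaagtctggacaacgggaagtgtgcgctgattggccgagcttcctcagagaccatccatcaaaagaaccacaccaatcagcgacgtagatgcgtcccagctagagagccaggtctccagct
Aen: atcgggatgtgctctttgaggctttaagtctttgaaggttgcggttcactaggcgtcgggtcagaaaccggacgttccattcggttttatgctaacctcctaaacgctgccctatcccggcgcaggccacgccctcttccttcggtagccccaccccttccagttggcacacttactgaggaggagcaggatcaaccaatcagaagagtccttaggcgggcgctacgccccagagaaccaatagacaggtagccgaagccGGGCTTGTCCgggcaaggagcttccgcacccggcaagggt
Gtse1: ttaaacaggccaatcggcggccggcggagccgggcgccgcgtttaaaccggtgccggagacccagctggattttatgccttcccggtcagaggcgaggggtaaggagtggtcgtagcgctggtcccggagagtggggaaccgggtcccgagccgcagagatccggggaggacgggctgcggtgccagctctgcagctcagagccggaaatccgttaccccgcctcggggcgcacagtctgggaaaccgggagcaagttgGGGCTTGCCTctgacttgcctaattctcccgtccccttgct
The match began 201 bases before the start in Bax and 185 before it in Ccng1, and 11 and 10 bases after it in Aen and Gtse1. The window of Phlda3 held none, which says only that these letters are not in it. Of the 38 called genes with a promoter in the table, 7 held a half-site (18.4%), against 9.55% of all genes in the table, tested here or not. Of the 7, 4 were the p53 targets printed here, and the others were Gbp7, St6gal1 and Txn2. The E-box CACGTG, which MYC and related factors can bind, was in 5 of the 38 (13.2%), against 8.09% of all genes. A match is a description of letters, not of binding.

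Genes of MYC and of ribosome making had a median effect below 0 in experiment 1 and near 0 in experiment 2. Myc encodes the transcription factor that drives growth and ribosome production in activated T cells. It fell in experiment 1 from 379, 339.7 and 321 to 223, 243 and 232 CPM, by 0.58 on the log2 scale. Experiment 2 had it at 723, 768 and 712 untreated and 776, 973 and 964 with DCA, an effect of 0.30 that did not pass (adjusted p = 0.0649). All libraries of experiment 2 were above all of experiment 1, and the difference was 0.88 ± 0.12 (adjusted p = 0.0107).

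Of 31 tested genes of the MYC network and ribosome biogenesis, 27 had a difference above 0, with a median of 0.43, and 1 (Myc) was called. A further 18 were higher at an unadjusted p under 0.05, where 1485 of 15688 genes were. In experiment 1, 18 of the 31 fell and 2 rose, with a median of -0.48. In experiment 2, 1 fell and 1 rose, with a median of 0.04. The per-mouse medians were -0.64, -0.58 and -0.20 in experiment 1 and 0.03, -0.17 and 0.22 in experiment 2. Mouse 2 of experiment 2 was thus below 0 as well. The median difference was 0.299 to 0.554 with 1 library left out. With each experiment fitted by itself, 15 fell and 2 rose in experiment 1, and 2 fell and 3 rose in experiment 2. Wdr12, a ribosome assembly factor, was just outside the threshold with a difference of 0.66 (adjusted p = 0.0504). Srm, the spermidine synthase, went from a mean of 421 to 191 CPM in experiment 1 and from 192 to 202 in experiment 2 (difference 1.21 ± 0.31, adjusted p = 0.0968).

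Nob1 and Rrp8, which process ribosomal RNA and stood outside that list, were called. Nob1 fell in experiment 1 from 111, 115 and 99.2 to 59.0, 63.4 and 62.2 CPM, and was at 88.3, 87.3 and 87.1 untreated and 83.3, 77.5 and 82.3 with DCA in experiment 2 (difference 0.71, adjusted p = 0.0168, 0.0634 with a mouse term). Rrp8 had a difference of 0.94 (adjusted p = 0.0396, 0.0531 with a mouse term). The host genes of small nucleolar RNAs, Snhg15 and Snhg17, differed by 0.96 (adjusted p = 0.0107) and 1.19 (adjusted p = 0.0228, 0.0531 with a mouse term). Snhg15 rose in experiment 2 from 29.9, 29.98 and 26.6 to 47.9, 44.7 and 48.6 CPM and was at 94.8, 98.6 and 85.5 untreated and 76.3, 75.5 and 82.6 with DCA in experiment 1. Snhg17 fell in experiment 1 from 17.8, 20.9 and 17.8 to 10.5, 11.2 and 8.57. Reads of the small RNAs inside these hosts cannot be told apart from host reads. Of 79 tested cytosolic ribosomal protein genes, 0 were called by edgeR (12 higher and 2 lower at an unadjusted p under 0.05; 2 called by DESeq2), with a median of 0.07 that turned below 0 under cyclic loess scaling.

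Among the listed chaperones, 1 gene was called, while the J-protein Dnajc15, outside that list, is given with the negative differences below. Hspa8, the constitutive cytosolic HSP70, fell in experiment 1 from 2694, 2366 and 2122 to 1471, 1668 and 1479 CPM. Experiment 2 had it at 1188, 1297 and 1181 untreated and 1361, 1375 and 1367 with DCA (effect 0.16, adjusted p = 0.293). The DCA libraries of experiment 1 still lay above every library of experiment 2, and the difference was 0.80 ± 0.11 (adjusted p = 0.0107). Of 27 tested genes of the unfolded protein response and chaperones, Hspa8 was the 1 called, 23 were above 0 and the median was 0.23. It was 0.140 and 0.108 without the DCA library of mouse 1 or 3 of experiment 2. Without the untreated library of mouse 1 or 3 of that experiment, it was 0.139 and 0.0455. With the gene set and TMM factors kept, it ran from 0.140 to 0.309 with 1 library left out. Under cyclic loess scaling it was 0.141, with 19 above 0. In experiment 1, 18 of them fell, and in experiment 2, 4 fell; with each experiment fitted by itself, 16 and 11 fell. Herpud1, of the degradation of misfolded proteins in the endoplasmic reticulum, had effects of -0.83 and -0.33 (difference 0.50, adjusted p = 0.126). Hspa5, the chaperone BiP, had effects of -0.68 and -0.35.

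Interferon-inducible GTPases guard cells against intracellular pathogens, and 2 of them were called. Gbp7 fell in experiment 1 from 221, 214 and 239 to 135, 162 and 161 CPM. It was at 201, 185 and 182 untreated and 196, 217 and 189 with DCA in experiment 2 (difference 0.65 ± 0.12, adjusted p = 0.0372, 0.0768 with a mouse term). Gbp10, a low gene, fell in experiment 1 from 2.77, 1.85 and 2.37 to 0.420, 0.251 and 0.312 CPM and was at 3.02, 4.79 and 4.52 untreated and 2.73, 3.57 and 3.30 with DCA in experiment 2. Its difference was 2.45 ± 0.45 (adjusted p = 0.0346, 0.0637 with a mouse term), and its close paralogs can share reads with it. Of 35 tested genes of this group, 28 were above 0 with a median of 0.25. It was 0.145 and 0.108 without the DCA library of mouse 1 or 2 of experiment 2. Without the untreated library of mouse 2 or 3 of that experiment, it was 0.136 and 0.0901. With the gene set and TMM factors kept, it ran from 0.186 to 0.343 with 1 library left out. At 5 CPM it was 0.112, with 21 of 32 above 0. In experiment 1, 13 fell and 0 rose, and in experiment 2, 2 fell and 0 rose; with each experiment fitted by itself, 8 fell and 0 rose, and 5 fell and 1 rose.

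Serpine2 had the largest DCA effect of the called genes at 5 CPM or more in both experiments. It encodes protease nexin-1, a secreted inhibitor of thrombin and other serine proteases. It rose from 69.4, 97.8 and 77.4 to 221, 329 and 222 CPM in experiment 1 and from 27.98, 33.4 and 57.8 to 424, 472 and 571 in experiment 2. Untreated levels were lower and DCA levels higher in experiment 2, without overlap in either. The log2 effects of 1.66 ± 0.23 and 3.62 ± 0.25 differed by 1.96 ± 0.33 (adjusted p = 0.0223).

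Ass1, argininosuccinate synthase of arginine synthesis, was at 25.9, 28.7 and 22.6 CPM untreated and 21.8, 19.0 and 21.7 with DCA in experiment 1. It rose in experiment 2 from 129.8, 131 and 164 to 219.7, 228 and 209 (difference 0.94, adjusted p = 0.0223, 0.0714 with a mouse term). Fbxw5, a substrate receptor of a ubiquitin ligase, fell in experiment 1 from 10.3, 11.03 and 8.37 to 4.05, 4.12 and 4.60 CPM. All libraries of experiment 2 held it between 36.2 and 45.5 (difference 1.28 ± 0.20, adjusted p = 0.0146, 0.0531 with a mouse term). Mcrip2 fell in experiment 1 from 35.2, 35.6 and 30.2 to 15.0, 20.1 and 19.4 and stayed between 14.1 and 18.3 in experiment 2 (difference 1.08, adjusted p = 0.0268, 0.0879 with a mouse term). In both genes DCA cells of experiment 1 thus moved down in all 3 mice.

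Prep, Trnau1ap and Glrx3 were, with Lta, Cd44 and Aen, the genes that fell in experiment 1 and rose in experiment 2. Prep, a peptidase that cuts after proline, went from 61.1, 63.7 and 55.6 to 46.2, 44.4 and 43.1 CPM and from 135, 137 and 141 to 175, 156 and 183 (difference 0.75, adjusted p = 0.0146), and its rise was not called with a mouse term (adjusted p = 0.0633). Trnau1ap, which works in selenocysteine incorporation, went from 152, 153 and 139.8 to 113, 125 and 116 and from 56.5, 61.4 and 60.9 to 73.1, 70.1 and 75.1 (difference 0.62, adjusted p = 0.0256, 0.0768 with a mouse term), and its rise was not called with that term (adjusted p = 0.0851). Glrx3, an iron-sulfur glutaredoxin, went from 526, 495 and 534 to 376, 469 and 453 and from 284, 299.6 and 302 to 358, 353 and 375 (difference 0.56, adjusted p = 0.0478, 0.1 with a mouse term), and with that term neither its fall nor its rise was called (adjusted p of 0.0522 and 0.0777). In each of the 3 genes and in each experiment the DCA libraries were apart from the untreated ones.

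The other genes with a positive difference were mostly lower in experiment 1 only. Sae1, a subunit of the SUMO-activating enzyme, had a difference of 0.76 and kept its call with a mouse term (adjusted p = 0.0431). That term ended the calls of Ywhab, a 14-3-3 protein (difference 0.51, adjusted p = 0.0821 with the term), Cnbp, a nucleic acid binding protein (0.63, 0.0775), and Srpk1, a kinase of splicing factors (0.59, 0.0853). It also ended those of Txn2, the mitochondrial thioredoxin (0.66, 0.109), and Fkbp1a, the FK506-binding immunophilin (0.53, 0.0879). Htra2, a mitochondrial protease (difference 1.04, adjusted p = 0.0531 with a mouse term), shares exon sequence on the opposite strand with the more abundant Aup1, and without a stated strand setting their reads cannot be told apart. In all, 6 of the 52 genes overlap an exon of another tested gene.

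The 8 genes with a negative difference are given next. Genes with mitochondrial products were called in both directions, and their share over all genes was not counted. Gpat3 encodes an acyltransferase that starts triglyceride and phospholipid synthesis. It rose in experiment 1 from 1.13, 2.00 and 2.47 to 8.10, 10.5 and 9.98 CPM and was at 13.5, 11.5 and 13.2 untreated and 14.7, 10.8 and 15.1 with DCA in experiment 2. DCA cells of experiment 1 stayed under every library of experiment 2. The effects were 2.34 ± 0.25 and 0.09 ± 0.23, with a difference of -2.26 ± 0.34 (adjusted p = 0.0146).

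St6gal1, a sialyltransferase of N-glycans, rose in experiment 1 from 7.73, 6.41 and 7.84 to 16.3, 15.5 and 15.9 CPM, while in experiment 2 it was at 66.3, 78.4 and 67.3 untreated and 85.1, 84.5 and 71.8 with DCA (difference -0.93, adjusted p = 0.0256, 0.0531 with a mouse term). Appl2, an endosomal adaptor, rose in experiment 1 from 9.44, 10.2 and 10.3 to 18.9, 19.8 and 19.95 and stayed between 26.6 and 31.8 in experiment 2 (difference -0.84, adjusted p = 0.0386, 0.104 with a mouse term). Snord118, a small nucleolar RNA, had a difference of -1.80 (adjusted p = 0.0277, 0.0768 with a mouse term) at 0.894 to 11.5 CPM. Sfmbt2, of the Polycomb family, had 0 counts in the 3 untreated libraries of experiment 1, which allows up to 0.0343 CPM over the group (3 counts), and was at 1.15, 2.15 and 0.818 with DCA, at least 40.6-fold higher. Experiment 2 had it at 0.916, 0.667 and 0.623 untreated and 0.970, 0.941 and 2.24 with DCA, and its call ended with a mouse term (adjusted p = 0.0920).

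Dnajc15 encodes a J-protein of the inner mitochondrial membrane that restrains respiration at complex I. It rose in experiment 1 from 664, 669 and 735 to 888, 749 and 797 CPM and fell in experiment 2 from 295, 286 and 309 to 217, 211 and 232. Every library of experiment 1 lay above every library of experiment 2, and within each experiment the 2 arms were apart. The log2 effects were 0.23 ± 0.07 and -0.43 ± 0.07 (difference -0.67 ± 0.10, adjusted p = 0.0146). With a mouse term the rise in experiment 1 was not called (adjusted p = 0.0576).

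The mitochondrial ribosomal RNAs mt-Rnr1 and mt-Rnr2 differed as well. Mt-Rnr2, of the large subunit, was at 2304, 2632.5 and 2136 CPM untreated and 3623, 2664 and 2889.5 with DCA in experiment 1 (effect 0.38, adjusted p = 0.08, 0.0455 with a mouse term), and fell in experiment 2 from 2771, 1982 and 1990.5 to 1585, 1482 and 1252.5. Mt-Rnr1, of the small subunit, rose in experiment 1 from 908, 989 and 796 to 1598, 1143 and 1166 and was at 1242, 869 and 927 untreated and 730, 764 and 620 with DCA in experiment 2. The differences were -1.02 ± 0.20 (adjusted p = 0.0437) and -1.06 ± 0.21 (adjusted p = 0.0458, 0.0531 with a mouse term). In mouse 2 of experiment 1 mt-Rnr2 changed by 0.02, the smallest of the 3. Under cyclic loess scaling neither was called (adjusted p of 0.0732 and 0.0628).

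Of 14 tested mitochondrially encoded genes, 0 had a difference above 0, with a median of -0.47, and the sign of the median held under each scaling tried. In experiment 1, 6 of the 14 rose and 0 fell. In experiment 2, 1 rose and 3 fell. Mt-Co1, a cytochrome oxidase subunit, rose in both experiments, from means of 1709 to 2945 CPM and 4499 to 5721 (difference -0.44 ± 0.12, adjusted p = 0.125). Mt-Nd2, of complex I, had effects of 0.10 and -0.39 (difference -0.49, adjusted p = 0.109). The 57 tested nuclear genes of the respiratory chain, whose proteins work beside them, had 0 calls in the difference by edgeR (5 higher and 3 lower at an unadjusted p under 0.05; 1 by DESeq2) and a median of -0.07 (-0.201 to -0.0385 with 1 library left out). In experiment 1, 22 of them fell and 1 rose, and in experiment 2, 16 fell and 0 rose; with each experiment fitted by itself, 10 fell and 2 rose, and 22 fell and 0 rose.

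**Figure D4:**
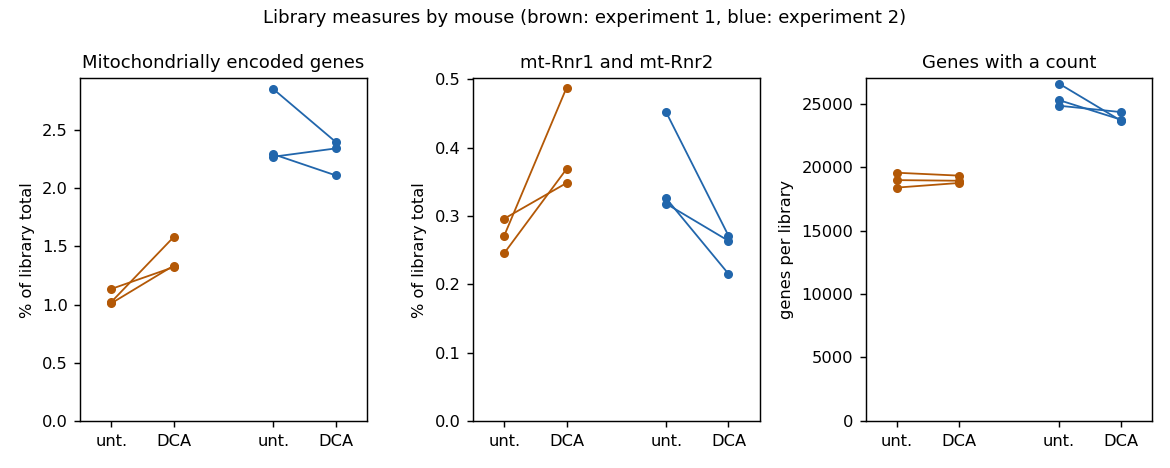
Share of each library's counts in mitochondrially encoded genes and in mt-Rnr1 and mt-Rnr2 (% of library total), and number of genes with a count, with lines joining the untreated (unt.) and DCA libraries of 1 mouse (brown: experiment 1, blue: experiment 2). Both brown shares rise in all 3 mice, the blue ribosomal RNA share falls in all 3, and blue libraries hold more detected genes.

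Over whole libraries the mitochondrial share of counts changed with DCA by 0.557, 0.187 and 0.323 percentage points in the 3 mice of experiment 1 and by -0.454, 0.0715 and -0.181 in those of experiment 2. The changes did not overlap, and the exact two-sided permutation test gave p = 0.1, the smallest that 3 against 3 mice allow (adjusted p = 0.14 over 7 library measures). The same p was found for total counts, with mean changes of -6147480 and 405573, and for genes detected, with mean changes of 28.7 and -1664. So it was for the mitochondrial ribosomal RNA share (0.131 and -0.115 points) and for the TMM factor itself (0.0862 and 0.0454). The median difference of all genes was 0.0378 with TMM, -0.000368 with RLE size factors and -0.00783 with cyclic loess. The ribosomal protein share changed by 0.436 ± 0.602 (SD, n = 3) and 0.648 ± 0.156 points (exact permutation p = 0.9). Mitochondrial share and detected genes thus had a lower change in experiment 2, as the negative calls above had. In experiment 1 the changes of detected genes had no common sign (365, -229 and -50). Mt-Rnr1 and mt-Rnr2 are themselves counted in the mitochondrial share. The part of either measure in the calls was not tested.

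No gene nearest to the drug's target passed the test of the difference. Of 13 tested genes of the pyruvate dehydrogenase complex and pyruvate entry, 0 were called in the difference by edgeR (2 higher and 1 lower at an unadjusted p under 0.05; 1 by DESeq2). Pdk1, the kinase isoform induced by hypoxia, rose in experiment 1 from 52.98, 54.7 and 69.9 to 83.3, 87.4 and 79.8 CPM and was at 151, 139 and 155 untreated and 145, 169 and 137 with DCA in experiment 2. Its difference of -0.47 ± 0.15 did not pass (adjusted p = 0.176, 0.0391 with DESeq2), and the per-mouse changes overlapped. Pdk3 had a difference of -0.16 ± 0.14, Pdha1, the catalytic subunit, of -0.01 ± 0.13, and Mpc1, of the pyruvate carrier, of -0.07 ± 0.13. Pdk2 was at most at 4.08 CPM in any library, and its difference of 1.33 ± 0.99 did not pass. Ldha, lactate dehydrogenase A, differed by 0.15 ± 0.08 (adjusted p = 0.443), Slc2a1, the glucose transporter GLUT1, by -0.27 ± 0.13 and Txnip, which limits glucose uptake, by 0.07 ± 0.13.

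Genes induced by low oxygen had no call in the difference. Of 24 tested, 12 rose in experiment 1 and 1 in experiment 2 (6 and 4 with each experiment fitted by itself), 5 had a difference above 0 and the median was -0.28, with 0 calls by edgeR (0 higher and 7 lower at an unadjusted p under 0.05; 3 by DESeq2). The per-mouse medians were 0.49, 0.66 and 0.03 in experiment 1 and 0.14, 0.22 and 0.07 in experiment 2, so that mouse 3 of experiment 1 lay below all 3 mice of experiment 2. The median difference was -0.184 without the untreated library of mouse 1 and -0.453 without that of mouse 3 of experiment 1. Ankrd37, a hypoxia-inducible gene, rose in experiment 1 from a mean of 38.3 to 101 CPM and went from 42.6 to 61.9 in experiment 2 (difference -0.86 ± 0.22, adjusted p = 0.0936). Hif1a, the hypoxia-inducible factor subunit itself, fell in both, by 0.60 and by 0.40.

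Of 32 tested naive, stem and central memory genes, 9 rose and 4 fell in experiment 1, and 7 rose and 3 fell in experiment 2. Tcf7, the transcription factor TCF-1, rose from 6.87, 3.13 and 9.11 to 20.2, 14.7 and 15.1 CPM in experiment 1 and from 21.4, 31.3 and 37.6 to 60.5, 78.5 and 62.2 in experiment 2. DCA libraries were above the untreated ones in both, and the effects of 1.40 and 1.16 differed by -0.24 ± 0.41. Slamf6, a receptor of stem-like T cells, rose by 2.16 and 2.10 (difference -0.06 ± 0.36). Il7r, the interleukin-7 receptor of long-lived T cells, had effects of -0.22 and 0.11, neither called (difference 0.33 ± 0.28, adjusted p = 0.657). In the difference, 0 of the 32 were called by edgeR (1 higher and 2 lower at an unadjusted p under 0.05; 1 by DESeq2). Outside that group, Entpd1, the ectonucleotidase CD39 found on exhausted T cells, fell by 0.62 and by 1.14 (difference -0.52 ± 0.17, adjusted p = 0.179, 0.0346 with DESeq2). Eomes fell by 0.76 and by 1.11 (difference -0.35 ± 0.31).

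**Figure D5:**
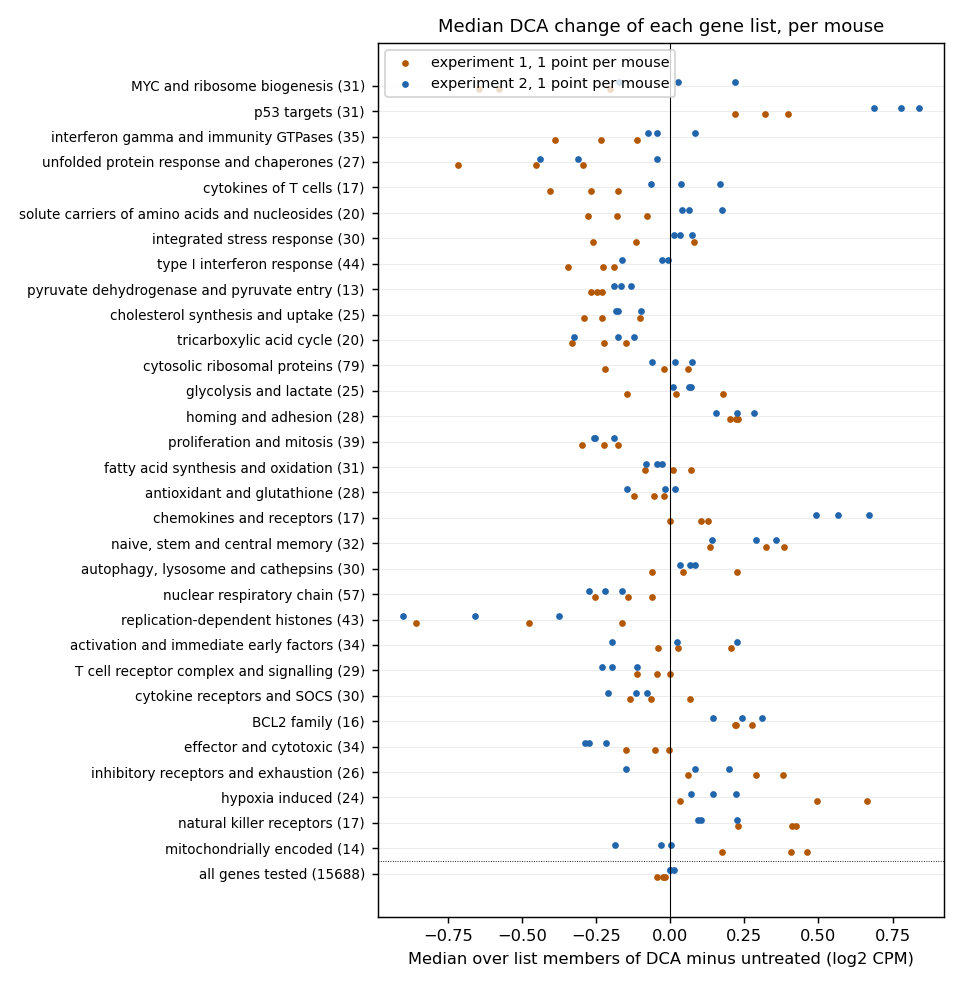
Median over the tested members of each gene list of the difference of log2 CPM between the DCA and untreated library of a mouse (x axis), for the 3 mice of experiment 1 (brown) and of experiment 2 (blue), with the number of members in brackets and all genes tested at the bottom. The p53 targets are above 0 in all 6 mice and higher in experiment 2. The MYC list is below 0 in the 3 mice of experiment 1 and in mouse 2 of experiment 2.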

How the data were processed

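RNA of sorted CD8+ T cells was made into libraries with a SmartSeq kit and 15 amplification cycles, per the labels' protocols. The authors deposited raw read counts per gene for 12 libraries, 3 per group, totalling 28039699 to 41051066. Fastp 0.23.2, STAR 2.7.10a, edgeR 3.36.0 and GRCm39 are named in the submitters' processing notes; the sources used here do not name the read counter, annotation or strandedness. From the authors' edgeR table, also deposited, only gene symbols were taken and no values in other units were used. Each mouse gave 1 library per arm, per the labels, so libraries of a mouse are paired by design; deviations of the same mouse correlated at 0.0443 to 0.0834 and those of different mice at -0.0689 to -0.00438.

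Counts were analysed with edgeR 4.0.16 in R 4.3.3 (TMM scaling, filterByExpr by the 4 groups, quasi-likelihood test, Benjamini-Hochberg adjustment over 15688 genes, threshold 0.05), and the script was tested on simulated data. SEs are the absolute log2 fold change over the root of F. Per-mouse changes are log2 CPM with a prior count of 2. Alternatives used DESeq2 1.42.0, limma 3.58.1 (with and without voom), other scalings, other filters, a mouse term and leaving out each library. The members, the 36 gene lists and the tests were chosen with earlier results of these data known. Genes named were the 10 largest called differences per direction at 5 CPM or more in both experiments with changes that did not overlap, up to 2 called members per list and direction, 30 chosen genes and up to 8 called with opposite signs. Other called genes and list members were named after their values were seen.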

Additional observations from a re-analysis of the deposited data

Results flagged for a closer look

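The named genes called in the test of the difference between the experiments are collected here, as log2 of the DCA effect in experiment 2 minus that in experiment 1 (edgeR, 3 mice per experiment). Higher in experiment 2 were Gbp10 at 2.45, Serpine2 at 1.96, Phlda3 at 1.74, Fbxw5 at 1.28, Snhg17 at 1.19, Aen at 1.12, Cd44 at 1.11, Bax, Lta and Mcrip2 at 1.08 each and Gtse1 at 1.05. Below these came Myc at 0.88, Hspa8 at 0.80, Prep at 0.75, Sh2d2a at 0.74, Ccng1 at 0.73, Gbp7 at 0.65, Trnau1ap at 0.62 and Glrx3 at 0.56. Lower in experiment 2 were Gpat3 at -2.26, mt-Rnr1 at -1.06, mt-Rnr2 at -1.02, St6gal1 at -0.93, Appl2 at -0.84 and Dnajc15 at -0.67.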

How the results depend on the processing

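The 52 calls of the difference came to 19 at an absolute log2 of at least 1, 458 with DESeq2 (318 higher, 140 lower), 28 with cyclic loess and limma (22 and 6), 566 with no filter (378 and 188), 24 with a replicate block for each mouse (21 and 3; 18 shared with the 52) and 0 with the replicate block as limma on per-mouse differences (1749 at an unadjusted p under 0.05). A filter at 5 CPM gave 77, 44 higher and 33 lower, and moved the split by over 10 percentage points; the cause was not tested in any of these. Leaving out 1 library gave 1 to 217 calls: without DCA replicates 1, 2 and 3 of experiment 2 there were 4, 2 and 1, without its untreated replicates 1, 1 and 7, without untreated replicates 1, 2 and 3 of experiment 1 there were 18, 11 and 217, and without its DCA replicates 37, 143 and 78. With the gene set and TMM factors of all 12 libraries kept, an alternative chosen after seeing the data, the range was 4 to 217. With them kept there were 4 to 27 calls without 1 library of experiment 2 and 11 to 217 without 1 of experiment 1. In experiment 1 the 2622 calls came to 552 at an absolute log2 of at least 1 and 1251 when fitted alone, with splits of 1083 higher and 1041 lower under cyclic loess and 1153 and 1219 at 5 CPM. In experiment 2 the 717 calls came to 183 at an absolute log2 of at least 1, 1512 with DESeq2 (617 higher, 895 lower), 1564 fitted alone, 1171 with limma-voom, 1116 with no filter, and 210 to 824 without 1 library (196 to 849 with factors kept). Differences near 0 turned sign: Gzmb at -0.00914 with DESeq2 and with RLE size factors, -0.00772 with cyclic loess and -0.0608 at 5 CPM, Pdcd1 at -0.0265 at 5 CPM, and Txnip at -0.0319 with cyclic loess and -0.0234 at 5 CPM. Leave-one-out ranges that crossed 0 were -0.598 to 0.0988 for Tcf7 (-0.602 to 0.0970 with factors kept), -0.324 to 0.191 for Slamf6, -0.134 to 0.178 for Gzmb, -0.0292 to 0.232 for Cdkn1a, -0.232 to 0.597 for Pdcd1 (from -0.234 with factors kept), -0.166 to 0.0535 for Pdha1 (to 0.0570), -0.0769 to 0.159 for Txnip, -0.566 to 1.87 for Pdk2 (-0.568 to 1.99) and -0.447 to 0.665 for Tox (from -0.451). The median of all genes moved from 0.0378 to -0.0693 with no filter. With 3 mice per experiment, differences of low genes such as Pdk2 were not resolved.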

Other observations

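Other gene groups had few or no calls in the difference. Of 17 tested natural killer receptor genes, which T cells can also express, 6 had a difference above 0, with a median of -0.38 (-0.542 to -0.180 with 1 library left out) and 0 calls by edgeR (0 higher and 2 lower at an unadjusted p under 0.05; 1 by DESeq2). Of 26 tested inhibitory receptor and exhaustion genes, 9 were above 0, with a median of -0.23 (-0.377 to -0.120) and 0 calls by edgeR (0 higher and 7 lower at an unadjusted p under 0.05; 2 lower by DESeq2 and 4 lower with no filter). Of 20 tested solute carriers of amino acids and nucleosides, 14 were above 0, with a median of 0.19 (0.0274 to 0.237) and 0 calls by edgeR (5 higher and 0 lower at an unadjusted p under 0.05; 1 by DESeq2). Of 30 tested genes of the integrated stress response, 21 were above 0, with a median of 0.14 (0.0381 to 0.189) and 0 calls by edgeR (3 higher and 0 lower at an unadjusted p under 0.05; 0 by DESeq2).

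Within each experiment, 5.67% of all genes rose and 11% fell in experiment 1, and 2.37% rose and 2.2% fell in experiment 2. Against that, 6 of the 26 inhibitory receptor genes rose and 1 fell in experiment 1, and 5 rose and 3 fell in experiment 2; with each experiment fitted by itself, 4 rose and 1 fell, and 6 rose and 6 fell. Of 39 proliferation and mitosis genes, 16 fell in experiment 1 and 11 in experiment 2, and 0 rose in either; with each experiment fitted by itself, 8 and 15 fell. Their median difference was 0.02 (-0.123 to 0.0348 with 1 library left out), with 0 calls by edgeR (7 higher and 3 lower at an unadjusted p under 0.05; 3 by DESeq2). Of 43 replication-dependent histone genes, 11 fell in experiment 1 and 6 in experiment 2, an order that turned with each experiment fitted by itself (4 of 37 and 15 of 43). The median difference was -0.07 (-0.329 to 0.0827).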
